A study of Mus musculus with 4 samples.

Results

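Goblet cells are the mucus-secreting cells of the airway lining, and 5 genes of their differentiation and secretion were followed in allergen-challenged mouse lung: Slc26a4, Tff2, Spdef, Foxa3 and Itln1. They were taken as every probe that the platform annotation pairs with 1 of these symbols (older names Itln and Itlna included). That gave 5 probes, 1 per gene, of 20205 on the array. All 5 had a value on all 4 arrays, as did 18160 probes in total.

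The lungs came from BALB/cJ mice, an inbred laboratory strain in which allergic airway models are common. Each array compared lung of mice sensitized to ovalbumin (OVA, the main egg white protein and a standard experimental allergen) and then challenged with it against a reference pooled from 6 non-sensitized control animals in the same air. Challenged mice in UCP air, an exposure whose abbreviation the labels do not spell out, gave 2 arrays, and challenged mice in particle-free air gave 2. Their controls were kept in UCP air and in particle-free air, and sensitization and challenge cannot be told apart because the controls had neither. Ages are not in the labels, nor is it stated that the 2 arrays of one air come from different animals. P-values therefore measure only how far arrays differ, and that spread may be technical.

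Airway goblet cells arise mainly from club cells. In mouse airways the type 2 cytokine interleukin 13 acts through its receptor and the transcription factor STAT6, and the epithelial transcription factor SPDEF then turns on genes for mucus production while FOXA3 can drive the same cell fate. The mature cell stores mucins in granules together with small trefoil peptides, and the ion composition of the airway liquid affects how the released mucins swell. Pendrin, the SLC26A4 protein, exchanges chloride for other anions such as bicarbonate at the luminal membrane, TFF2 is a secreted trefoil peptide of mucosal surfaces, and intelectin 1 (ITLN1) is a secreted lectin that binds microbial sugars.

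RefSeq start-site windows (GRCm38.p6, 250 bases before to 50 after the start) were found for 4 of the 5 genes, Slc26a4, Spdef, Foxa3 and Itln1. The windows of Slc26a4 and Spdef are shown because these genes were above 0 on all 4 arrays. That of Slc26a4 lies on the minus strand at chr12:31559935-31560234 and that of Spdef on the minus strand at chr17:27728902-27729201, both written 5′ to 3′ along the gene, with capitals for a TATA box (TATAAA).
Slc26a4: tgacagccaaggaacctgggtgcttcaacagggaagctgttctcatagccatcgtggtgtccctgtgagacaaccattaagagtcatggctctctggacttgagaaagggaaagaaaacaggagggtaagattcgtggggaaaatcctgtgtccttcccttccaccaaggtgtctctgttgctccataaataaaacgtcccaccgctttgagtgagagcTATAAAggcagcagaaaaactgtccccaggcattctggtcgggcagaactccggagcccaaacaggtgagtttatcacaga
Spdef: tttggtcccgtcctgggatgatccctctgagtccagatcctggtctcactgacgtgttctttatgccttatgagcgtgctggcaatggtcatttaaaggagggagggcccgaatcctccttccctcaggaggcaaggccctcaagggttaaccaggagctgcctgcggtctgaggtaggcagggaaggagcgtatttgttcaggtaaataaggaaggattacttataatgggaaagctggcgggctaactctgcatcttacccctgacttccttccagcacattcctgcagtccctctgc
The TATA box of Slc26a4 began 31 bases before the start. The Foxa3 window held one as well, 36 bases before its start, and those of Spdef and Itln1 held none. Between 40 and 21 bases before the start, on the gene's own strand, TATAAA began in 1.99% of all 32851 windows. This motif was chosen after the sequences were seen. The STAT6 motif TTCNNNNGAA was in 0 of the 4 windows (6.95% of all windows) and the FOXA motif TGTTTAC in 0 (3.65%). The ETS-type motif CCGGAT, which SPDEF prefers, was in 0 as well (6.04%). Each was searched on both strands as exactly these letters (N, any base), so sites that vary from them were not counted. No 2 of these motifs overlapped in the 4 windows, and the absence of these letters says nothing about binding elsewhere.

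Every value is a deposited log2 ratio, challenged lung over control pool, and so gives a change and not a level. On each array the largest ratios form a plateau, positive on the arrays with challenged lung in Cy5 and negative on those with it in Cy3. A cap on Cy5 over Cy3 takes this form once every ratio is turned to the same direction, so the 4 columns run the same way. The 6 correlations between arrays over all probes were weak and positive (Pearson's r from 0.069 to 0.178, genes not being independent replicates). By Pearson's r the lowest was between the 2 arrays of particle-free air and the highest between array 1 of UCP air and array 1 of particle-free air. Between the 2 arrays of UCP air it was 0.161. Spearman's rank correlation was highest between array 2 of UCP air and array 2 of particle-free air (0.301), followed by array 1 of each air (0.275). It was 0.262 between the arrays of UCP air and 0.122 between those of particle-free air. Arrays differing in both air and number had 0.196 and 0.174. Arrays of the same air were thus not always more alike than arrays of different airs. The overall sign, challenged over control, is likely only. It was taken from the common practice of giving Cy5 over Cy3, together with 4 measured genes outside the group that are abundant in allergic mouse lung, Chil3, Retnla, Ccl8 and Arg1. Their averaged log2 ratios were 5.58, 4.53, 3.13 and 1.39, above 0 on all 4 arrays. With the sign turned, every direction below would turn with it. Array medians lay between -0.08 and 0.02 over the 18160 probes, and no brightness was available to filter dim probes.

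Slc26a4 and Tff2 were higher in challenged lung on every array, Slc26a4 by 18.9-fold and Tff2 by 2.57-fold on average. The transcription factors Spdef and Foxa3 had averages of 1.38-fold and 1.37-fold, and Itln1 had 1.28-fold with values on both sides of 0. In limma's moderated test over all 18160 probes, 0 of the 5 genes passed an adjusted p of 0.05 in the average of both airs. Only 0.00551% of all probes did, 1 probe, that of Chil3. At an unadjusted p under 0.05 there were 2 of the 5 genes (Slc26a4 and Tff2) and 2551 of all probes. Robust moderation in the same package also called 0 of the 5. The count over all probes was 34 without array 1 and 0 without array 2 of UCP air, and 22 without array 1 and 9 without array 2 of particle-free air. In whole-lung RNA, more goblet cells and more transcript per cell cannot be told apart.

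**Figure D1:**
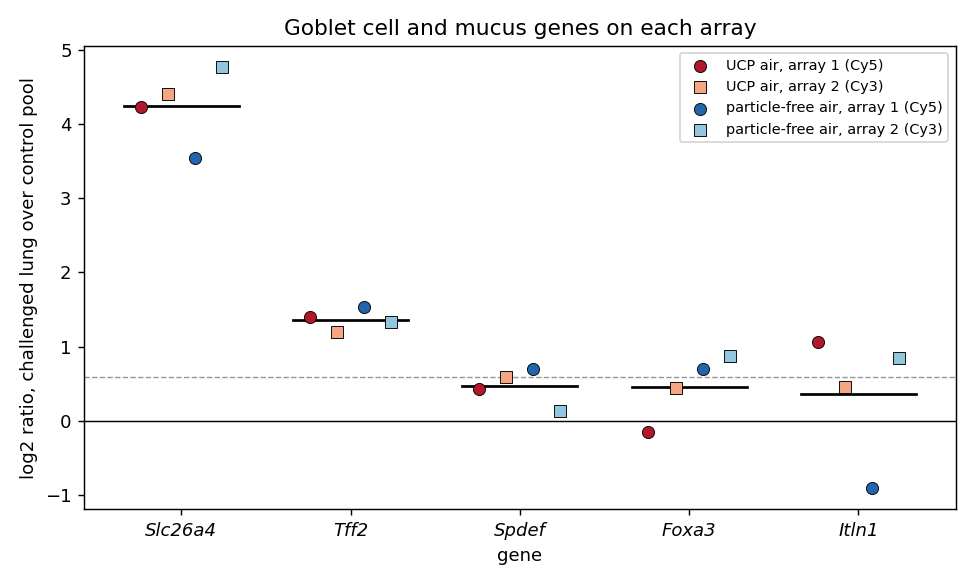
The 5 genes are on the x axis and the log2 ratio of challenged lung over control pool is on the y axis. Each point is 1 array (circles, challenged lung in Cy5; squares, in Cy3), black bars are means of 4 arrays and the dashed line marks 1.5-fold; all points of Slc26a4 and Tff2 lie above that line, while Itln1 spans from -0.91 to 1.06.

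Slc26a4 had log2 ratios of 4.23 and 4.41 on the arrays of UCP air, against 3.55 and 4.77 on those of particle-free air. Both values of UCP air lay between those of particle-free air, so the airs overlapped. The mean was 4.24 ± 0.51 (SD, n = 4), with 11.7-fold on the lowest array and 27.4-fold on the highest. The 95% interval of the averaged effect ran from 3.56 to 4.92 (limma adjusted p = 0.0796). By mean it was rank 20 of 18160 probes, and by the value on its lowest array rank 3. Averaging the probes of each gene first reduced the tests to 9153 genes, of which 9 were called. There the limma adjusted p was 0.0491 for the same ratio, since Slc26a4 has 1 probe and its own values were unchanged. Without array 1 of particle-free air, the lowest of the 4, the averaged log2 ratio was 4.55 (limma adjusted p = 0.0399). The adjusted p was 0.289 with the replicate block, 0.317 with the arrays of an air averaged and 0.494 without array 2 of UCP air.

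Tff2 had 1.40 and 1.20 in UCP air, against 1.54 and 1.33 in particle-free air. These were the most even values of the group, 1.36 ± 0.14 (SD, n = 4), and the airs overlapped. Only 6.54% of all probes had a smaller SD over the 4 arrays, and 0.876% had a higher mean. The interval of its averaged effect was 0.96 to 1.77 (limma adjusted p = 0.108).

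Slc26a4 and Tff2 were the 2 of the 5 genes at least 1.5-fold higher on all 4 arrays, where 1.13% of all probes (206) were. Both also passed 2-fold on all 4 arrays, as did 0.341% of all probes (62). The 5 genes were chosen with earlier results of these data known, so such shares of all probes are no test of the group.

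Spdef had 0.43 and 0.59 in UCP air, against 0.69 and 0.13 in particle-free air. It was above 0 on 4 of 4 arrays, but only 2 of the values reached 1.5-fold. The airs overlapped, and the interval of the average, 0.46 ± 0.25 (SD, n = 4), ran from -0.01 to 0.93 (limma adjusted p = 0.36). Being above 0 on all 4 arrays held for 3 of the 5 genes (Slc26a4, Tff2 and Spdef) and for 12.7% of all probes.

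Foxa3 had -0.16 and 0.43 in UCP air, against 0.69 and 0.87 in particle-free air. Both its values of particle-free air lay above both of UCP air, which held for 1 of the 5 genes and for 14.6% of all probes. That share counts this direction only, and probes with UCP air above particle-free air are not in it. The average was 0.46 ± 0.45 (SD, n = 4) with an interval from -0.02 to 0.93 (limma adjusted p = 0.368). FOXA3 is also a transcription factor of liver cells, and genes of plasma proteins made in liver were read beside it. Of 16 such genes 14 were measured, with medians of 0.53 and 0.37 on the arrays of UCP air, against 3.18 and 2.67 on those of particle-free air. Alb, the gene of albumin, lay at -0.53 and 0.81 in UCP air, against 4.75 and 4.46 in particle-free air. Of these 14 genes 13 had a higher average in particle-free air, and 0 passed the test of the difference (smallest limma adjusted p = 0.379, probes of a gene averaged). Their part in the values of Foxa3 was not tested.

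Itln1 had 1.06 and 0.45 in UCP air, against -0.91 and 0.85 in particle-free air. Array 1 of particle-free air was the only one below 0, and there 92.7% of all probes were higher. Without that array the averaged log2 ratio was 0.80, and without array 2 of particle-free air it was -0.08. The mean of 0.36 ± 0.89 (SD, n = 4) had an interval from -0.57 to 1.29 (limma adjusted p = 0.674), and 86.7% of all probes had a smaller SD.

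**Figure D2:**
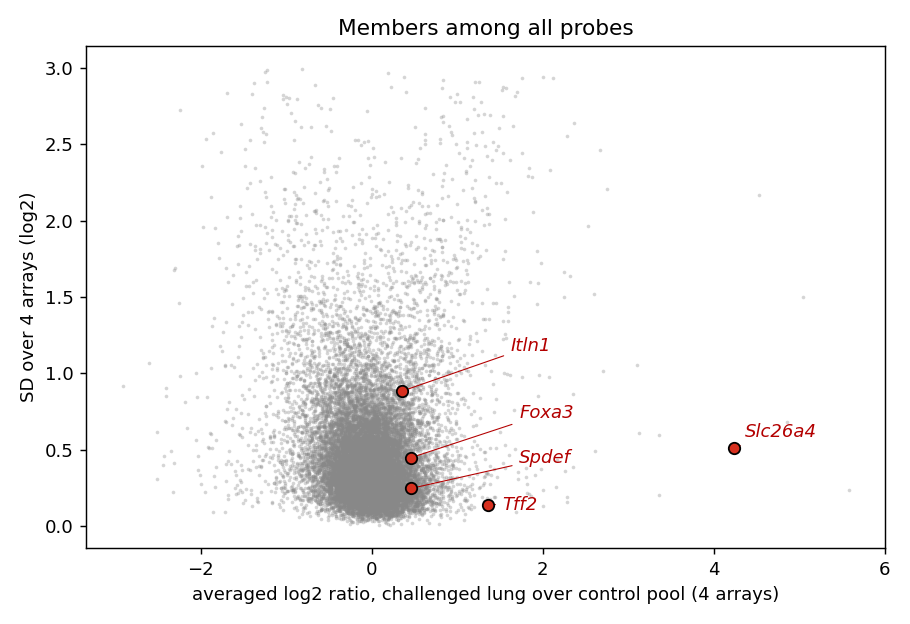
The x axis is the averaged log2 ratio over 4 arrays and the y axis the SD over them, with all probes as grey points (134 beyond the axes are left out) and the 5 genes in red. Slc26a4 stands far to the right at 4.24, Tff2 at 1.36 has a small SD of 0.14, and Spdef, Foxa3 and Itln1 lie within or at the edge of the main cloud.

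Over the 5 genes, chosen with earlier results of these data known, the median averaged log2 ratio was 0.46, beside -0.03 over all probes. The members' median on the arrays of UCP air was 1.06 and 0.59, and on those of particle-free air 0.69 and 0.87. With only 4 arrays, an exact permutation test that turns the signs of the arrays cannot give a two-sided p below 0.125, the value it gave for Slc26a4, Tff2 and Spdef.

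The next question was how the challenge effect looked within each air. In UCP air the log2 ratio averaged 4.32 ± 0.13 for Slc26a4, 1.30 ± 0.14 for Tff2, 0.51 ± 0.12 for Spdef, 0.14 ± 0.42 for Foxa3 and 0.75 ± 0.43 for Itln1 (SD, n = 2 each). In particle-free air the averages were 4.16 ± 0.87 for Slc26a4, 1.43 ± 0.15 for Tff2, 0.41 ± 0.40 for Spdef, 0.78 ± 0.13 for Foxa3 and -0.03 ± 1.24 for Itln1 (SD, n = 2 each). Slc26a4 and Tff2 thus had intervals above 0 in both airs. For Slc26a4 the interval was 3.35 to 5.29 in UCP air (limma adjusted p = 0.164) and 3.20 to 5.13 in particle-free air (limma adjusted p = 0.214). For Tff2 it was 0.72 to 1.87 in UCP air (limma adjusted p = 0.277) and 0.86 to 2.00 in particle-free air (limma adjusted p = 0.279). Foxa3 had an interval above 0 in particle-free air, 0.11 to 1.45 (limma adjusted p = 0.444), and one from -0.53 to 0.81 in UCP air (limma adjusted p = 0.939). Its interval in particle-free air crossed 0 when either array of that air was left out, at -0.18 to 1.92 without array 1 and -0.36 to 1.74 without array 2. The test called 0 of the 5 genes in UCP air and 0 in particle-free air, and 0% of all probes in either. At an unadjusted p under 0.05 there were 2 of the 5 genes in UCP air (1535 of all probes) and 3 in particle-free air (1895 of all probes). Robust moderation gave 0 calls in both airs. Leaving out array 1 of UCP air gave 36 called probes in that air, and leaving out array 1 of particle-free air gave 24 there, with 0 of the 5 genes among either.

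Whether UCP air changed the response was tested as the difference of the 2 challenge effects. Both airs were measured against their own control pools, so the difference sets challenge in UCP air against challenge in particle-free air and not one air against the other. The difference, UCP minus particle-free, was 0.16 for Slc26a4 (95% interval -1.21 to 1.52, limma adjusted p = 0.988). It was -0.14 for Tff2 (-0.94 to 0.67, 0.985), 0.10 for Spdef (-0.83 to 1.03, 0.988), -0.64 for Foxa3 (-1.59 to 0.31, 0.984) and 0.79 for Itln1 (-1.08 to 2.65, 0.984). None of the 5 passed, 0% of all probes passed, and at an unadjusted p under 0.05 there were 0 of the 5 and 722 of all probes, with 0 calls under robust moderation too. With arrays centred and scaled the difference was 0.95 for Slc26a4 (-0.35 to 2.25, limma adjusted p = 0.971) and 0.10 for Tff2 (-0.81 to 1.005, 0.986). An absolute difference larger than that of Foxa3 was seen in 21.3% of all probes, and larger than that of Itln1 in 15.3%.

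Dye orientation is a batch that holds both airs, since array 1 of each air carried challenged lung in Cy5 and array 2 in Cy3. Over the Cy5 arrays Slc26a4 averaged 3.89 and over the Cy3 arrays 4.59. The averages were 1.47 and 1.26 for Tff2, 0.56 and 0.36 for Spdef, 0.27 and 0.65 for Foxa3, and 0.07 and 0.65 for Itln1. All 5 averages were above 0 in each orientation, and the share of all probes for which this held was not counted. On the Cy5 arrays the averages of Foxa3 and Itln1 came from values on both sides of 0. These were -0.16 in UCP air and 0.69 in particle-free air for Foxa3, and 1.06 and -0.91 for Itln1. The difference between the airs was less even. UCP minus particle-free air was -0.85 on the Cy5 arrays and -0.43 on the Cy3 arrays for Foxa3, and -0.14 and -0.13 for Tff2. It changed sign with the orientation for Slc26a4 (0.68 and -0.36), Spdef (-0.26 and 0.47) and Itln1 (1.97 and -0.39).

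**Figure D3:**
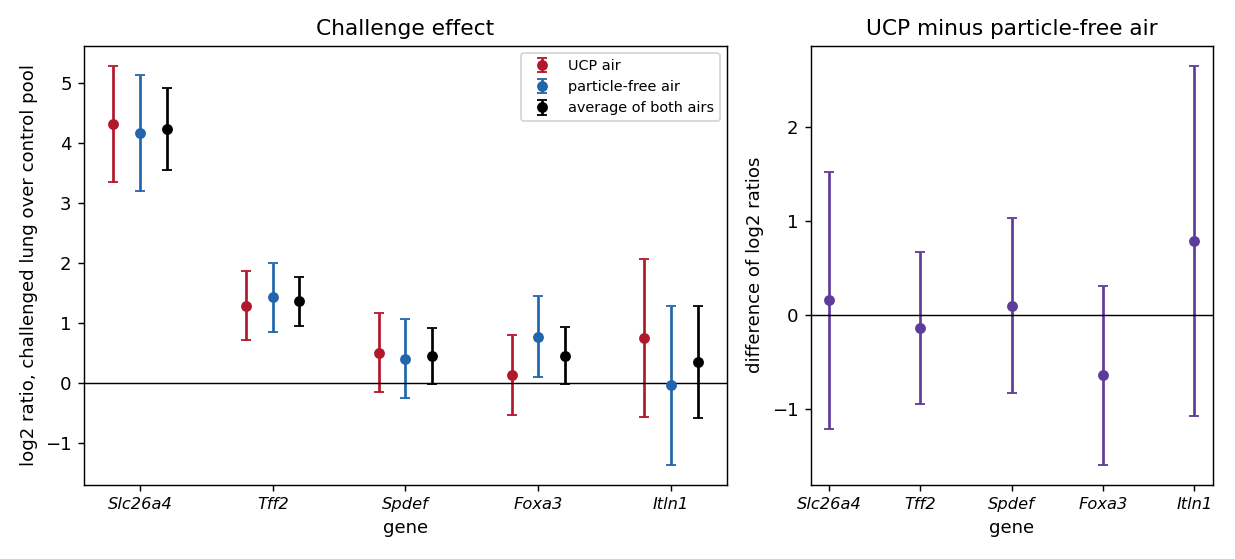
The left panel shows the challenge effect of each gene as log2 ratio with its 95% interval from limma, in UCP air, in particle-free air and averaged, and the right panel the difference UCP minus particle-free air on the log2 scale. Intervals of Slc26a4 and Tff2 lie above 0 in the left panel, and all 5 intervals of the difference cross 0.

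The genes around the 5 were taken from lists of the mucus pathway, with the probes of a gene averaged. Over all 9153 genes, 1.16% (106) were at least 1.5-fold higher on all 4 arrays, and the share lower by that factor on all 4 was 1.02% (93). Upstream, 6 of 20 type 2 cytokine and receptor genes were measured, with 0 past either bound and a median of 0.00. Stat3, a signal transducer, was above 0 on all 4 arrays at 0.27 ± 0.19. Gata3, the factor of type 2 helper T cells, lay at -0.03 ± 0.34, the cytokine gene Tslp at -0.84 ± 1.25, the signalling inhibitor Socs1 at 0.06 ± 0.89, and the receptor kinases Tyk2 and Jak1 at 0.02 ± 0.65 and -0.28 ± 0.67 (SD, n = 4 each). Il13, Il4ra and Stat6 were not analysed here.

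Of 22 other airway transcription factors and Notch pathway genes 13 were measured, 6 with an average above and 7 below 0, a median of 0.00 and 0 past either bound. Elf3, an epithelial ETS factor, lay at 0.81 ± 0.94 and above 0 on all 4 arrays, with 2.20 on array 1 of particle-free air. Sox9, a factor of lung progenitors, lay at 0.72 ± 0.51 and Creb3l1, a factor of the secretory pathway, at 0.49 ± 0.28, both above 0 on all 4 arrays. On the low side of 0 on all 4 arrays were the receptor gene Notch3 at -0.86 ± 0.36 and Klf4 at -0.82 ± 0.66 (SD, n = 4 each).

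Among the products, 4 of 22 mucins and mucus proteins were measured and 0 passed either bound. Zg16, a lectin of intestinal goblet cells, lay at 0.19 and 0.20 in UCP air, against -0.42 and -0.48 in particle-free air. Dmbt1, a scavenger receptor secreted by mucosal epithelium, lay at 0.07 ± 0.66, the iron-binding protein gene Ltf at -0.08 ± 0.26 and the lysozyme gene Lyz2 at -0.34 ± 0.33 (SD, n = 4 each). The mucins Muc5ac and Muc5b and the goblet cell genes Clca1 and Agr2 were not analysed here, so the label of goblet cell genes could not be checked against its defining markers.

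The machinery of mucus was measured more fully. Of 32 mucin glycosylation enzymes 13 were measured, with a median of 0.08 and 0 past either bound. Chst4, a sulfotransferase, lay at -1.19 ± 0.80 and Galnt2, which starts O-linked sugar chains, at -0.53 ± 0.23, both below 0 on all 4 arrays. Of the galactosyltransferases, B4galt4 lay at -0.44 ± 0.17 and B4galt1 at 0.41 ± 0.16 (SD, n = 4 each), each on one side of 0 on all 4 arrays, the 2 probes of B4galt1 differing by 1.08 in their averages. Of 16 granule exocytosis genes 12 were measured, with a median of 0.09 and 0 past either bound. Marcks, a kinase substrate involved in mucin release, lay at 0.18 ± 0.15 and Unc13d, a vesicle priming protein, at -0.38 ± 0.23 (SD, n = 4 each). The membrane fusion proteins SNAP23 and syntaxin 3 had their genes Snap23 and Stx3 at -0.26 ± 0.16 and 0.27 ± 0.19 (SD, n = 4 each). Rab3d, a small GTPase of secretory granules that was picked out after its values were seen, lay at 0.45 and -0.08 in UCP air, against 2.75 and 2.18 in particle-free air. In the EGF receptor pathway 4 of 10 genes were measured, with a median of 0.10 and 0 past either bound, and Adam17, the protease that sheds EGF receptor ligands, lay at 0.41 ± 0.34 (SD, n = 4).

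Slc26a4 could be set beside its relatives and partners in ion transport. Of 29 anion and fluid transport genes 12 were measured, with a median of -0.10, a highest average of 0.64 and 0 past either bound. The measured anion exchangers of the same family, Slc26a1, Slc26a2 and Slc26a11, lay at -0.04 ± 0.15, -0.25 ± 0.55 and -0.50 ± 0.43 (SD, n = 4 each). Ano1, a calcium-activated chloride channel, was above 0 on all 4 arrays at 0.56 ± 0.29, and the chloride channel gene Cftr lay at 0.22 ± 0.36 (SD, n = 4 each). Scnn1a, a subunit of the epithelial sodium channel, lay at -0.73 ± 0.57 (SD, n = 4), its 2 probes differing by 1.67 in their averages.

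**Figure D4:**
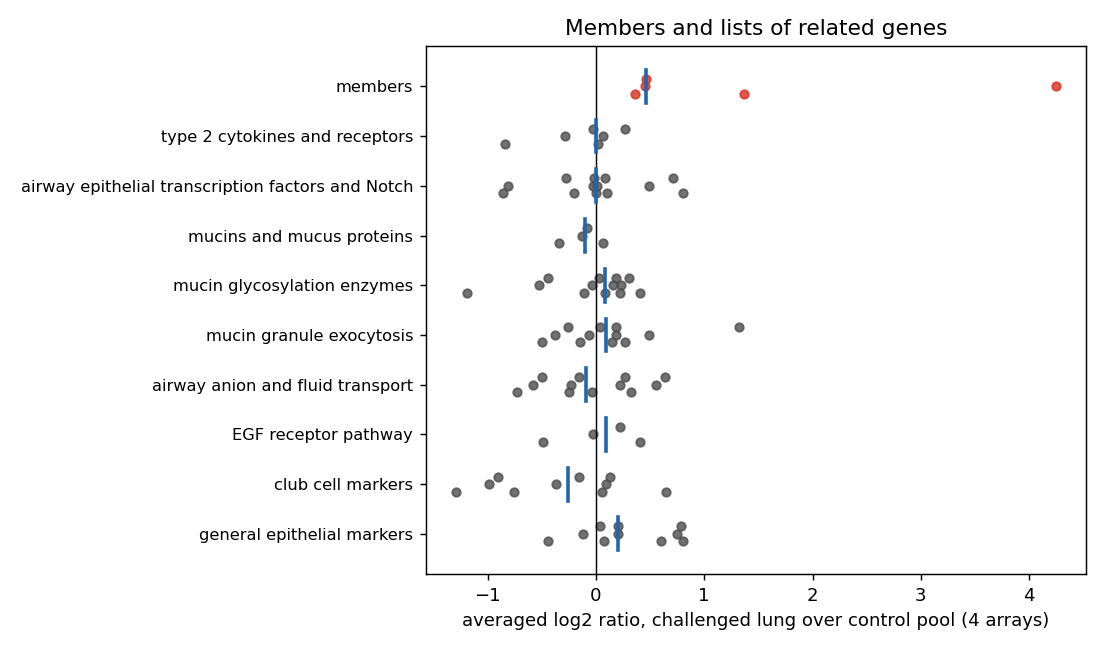
Each point is 1 gene, placed by its averaged log2 ratio over 4 arrays (x axis), in rows by list (y axis), and blue bars are list medians. The members include the points farthest to the right, Slc26a4 at 4.24 and Tff2 at 1.36, while the medians of the other lists lie between -0.26 and 0.20.

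Markers of the cells that could surround or precede goblet cells were read beside these values. Of 15 club cell genes 10 were measured, 4 with an average above 0 and 6 with one below it. On all 4 arrays 1 was above 0 and 5 were below it. The median of the 10 lay between -0.36 and -0.27 on the single arrays, with 0 past the upper bound and 2 past the lower one. Those 2 were Cyp2f2 and Cyp4b1, monooxygenases of club cells, at -1.29 ± 0.39 and -0.99 ± 0.23, while the secretoglobin gene Scgb3a1 lay at 0.13 ± 0.23 (SD, n = 4 each). Selenbp1, a selenium-binding protein gene, and Bpifa1, the gene of a secreted airway protein, were below 0 on all 4 arrays at -0.90 ± 0.22 and -0.76 ± 0.67 (SD, n = 4 each). Of 12 general epithelial genes 10 were measured, with a median of 0.20 and 0 past either bound. Epcam, an adhesion molecule of epithelial cells, lay at 0.20 ± 0.14, and Spint2, an epithelial protease inhibitor, at 0.60 ± 0.29 (SD, n = 4 each). The tight junction gene Cldn7 and the membrane glycoprotein gene Prom1 lay at 0.75 ± 0.47 and 0.79 ± 0.65, while the keratin gene Krt19 was below 0 on all 4 arrays at -0.44 ± 0.37 (SD, n = 4 each). Cdh1, the gene of E-cadherin, lay at -0.24 and -0.50 in UCP air, against 0.64 and 0.39 in particle-free air. The 10 measured ciliated cell genes had a median of -0.02 and the 6 measured alveolar type 2 genes one of -0.20.

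Marker lists of other tissues were read on the same arrays, by their medians and with no test of a list. Heart muscle genes (12 of 13 measured) had medians of -2.24 and -1.99 on the arrays of UCP air, against -0.02 and 0.07 on those of particle-free air, with Nppa at -5.72 and -5.91 in UCP air, against 0.38 and -0.17 in particle-free air. Thymus and T cell genes (7 of 12) had -1.29 and -1.27 in UCP air, against -0.25 and -0.26 in particle-free air. Adipose genes (9 of 12) had -1.52 and -1.50 in UCP air, against -0.73 and -0.94 in particle-free air, and squamous epithelium genes (6 of 10) had -1.78 and -1.81 in UCP air, against -1.08 and -1.64 in particle-free air. Slc26a4 is also made in thyroid, of whose 10 listed markers only the thyrotropin receptor gene Tshr was measured, at -0.03 ± 0.24 (SD, n = 4). TFF2 is also made in stomach, of whose 13 listed genes 3 were measured with averages from -0.08 to 0.48. Of 15 intestine genes 3 were measured, with averages from -0.35 to 0.89, and of 8 mesothelium genes 2, at -0.44 and 0.15. The part of other tissues in the values of the 5 genes was not tested.

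**Figure D5:**
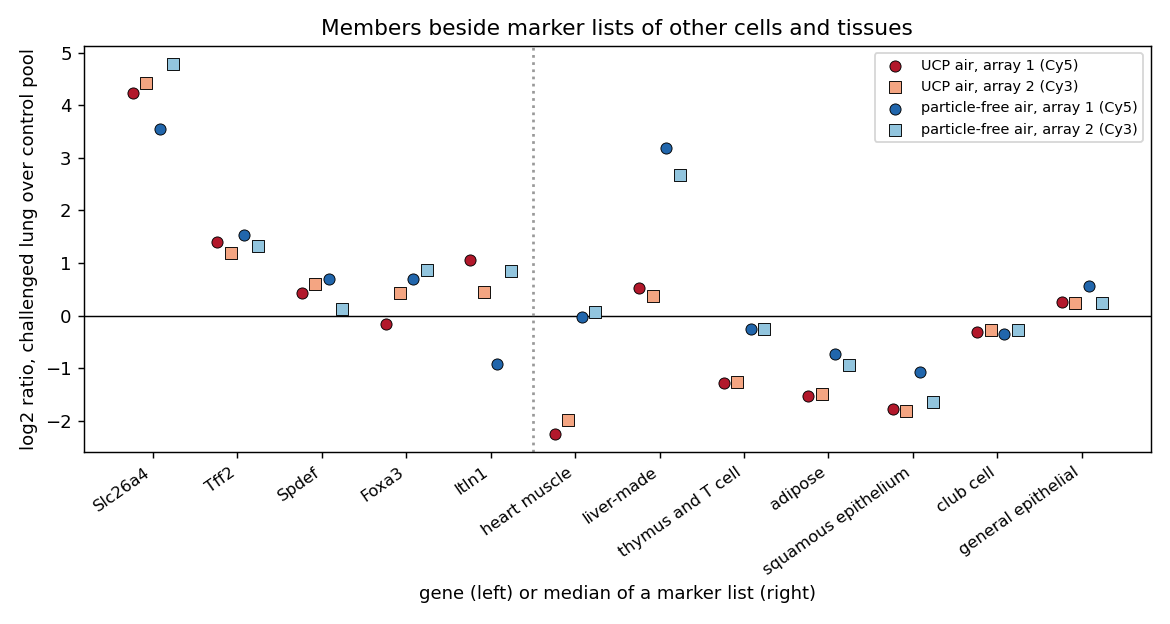
The y axis is the log2 ratio of challenged lung over control pool on each of the 4 arrays, for the 5 genes (left of the dotted line) and for the medians of marker lists (right). The medians of the heart muscle, liver-made, thymus, adipose and squamous lists do not overlap between the airs, and neither do the points of Foxa3. Those of the club cell and general epithelial lists overlap, as do the points of Slc26a4, Tff2, Spdef and Itln1.

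The named genes most like each member were those with the smallest root mean square difference in log2 ratio over the 4 arrays. For Slc26a4 these were Ccl9 (difference 1.04), Saa3 (1.13) and Ccl8 (1.22), and no probe came within 0.25. For Tff2 they were Ctsb (0.09), Rps9 (0.10) and Gpnmb (0.14), and 6 probes lay within 0.25. For Spdef they were Clcn5 (0.06), Wdr31 (0.07) and Abcc5 (0.07), among 382 probes within 0.25, and for Foxa3 they were Mark1 (0.08), Nat10 (0.08) and Psmb6 (0.09), among 104. For Itln1 they were Tmem108 (0.24), Gpr146 (0.25) and Cmss1 (0.27), with 1 probe within 0.25. Among the 12532 named probes with a value on all 4 arrays, more thus lay this near to Spdef and Foxa3 than to Slc26a4, Tff2 or Itln1. The 4 values of a pattern share the same arrays and control pools.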

How the data were processed

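Lung RNA on arrays with 2 colours gave 1 deposited log2 ratio per probe and array, in the value table that the authors deposited. Per the labels' protocols, cDNA from 20 µg of total RNA of single organs carried Cy3 or Cy5, coupled indirectly. Neither the image analysis nor the normalization is given in the sources used here, and the values were used as deposited. Symbols came from the platform annotation (13852 of 20205 probes had 1 symbol, 0 several, 6353 none), and 13849 were updated through the Entrez identifier. The 2045 probes with a missing value on any array were left out.

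limma 3.58.1 (R 4.3.3) was fitted to 18160 probes with 1 coefficient per air (2 residual and 2.32 prior degrees of freedom), and 4 comparisons were tested two-sided against 0, with Benjamini-Hochberg adjustment over all probes at 0.05. The control pool counts as 1 sample, so its own spread is not in the tests. The fit was also run on simulated data with known shifts. Lists were read by gene, as the mean of its probes. Every member was named, with the 3 most alike genes and up to 4 genes per list that lay on one side of 0 on all arrays and had the largest averages. Of the lists of ciliated, alveolar type 2 and other-tissue cells, medians or ranges stand in place of these genes. Genes named beyond this rule were chosen after their values were seen: Zg16, Dmbt1, Ltf, Lyz2, Tslp, Jak1, Tyk2, Socs1, Gata3, Creb3l1, Cftr, Slc26a1, Slc26a2, Rab3d, Scgb3a1, Epcam, Cdh1, Krt19, Tshr, Alb and Nppa. Members and lists were chosen with earlier results of these data known. The number of arrays limits the precision.

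The replicate number marks the dye orientation. The deviations of same-numbered arrays from their air means correlated at 0.054, so the numbers were not taken as pairs. Alternatives were the replicate block, centring, scaling, averaged probes, probes on at least 3 arrays, robust moderation, averaged arrays of an air and leaving out each array.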

Additional observations from a re-analysis of the deposited data

Results flagged for a closer look

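Of the genes named, 3 lay on opposite sides of 0 in the airs, on both arrays of each. Over all genes of the lists 13 of 163 did (7.98%), and over all probes 8.23%, so which genes stand here depends on which were named. Zg16 averaged 0.19 ± 0.005 in UCP air, against -0.45 ± 0.04 in particle-free air (SD, n = 2 each), a difference of 0.65 (limma adjusted p = 0.984). Jak1 averaged -0.83 ± 0.29 in UCP air, against 0.27 ± 0.18 in particle-free air (SD, n = 2 each), a difference of -1.11 (limma adjusted p = 0.984). Cdh1 averaged -0.37 ± 0.18 in UCP air, against 0.51 ± 0.18 in particle-free air (SD, n = 2 each), a difference of -0.88 (limma adjusted p = 0.984). With 2 arrays per air, groups were too small to test for single outlying arrays.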

How the results depend on the processing

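Over the alternatives tried, Slc26a4, Tff2, Spdef and Foxa3 kept an averaged log2 ratio above 0. Slc26a4 passed the test with the probes of a gene averaged (4.24, adjusted p = 0.0491) and without array 1 of particle-free air (adjusted p = 0.0399). Its adjusted p lay between 0.0399 and 0.494 over the alternatives, and leaving out single arrays gave 3.94 to 4.55. Averaged Itln1 ran from -0.079 to 0.80 when single arrays were left out. With the replicate block the adjusted p was 0.289 for Slc26a4 and 0.294 for Tff2, and the block changed no member's call. It gave 0 calls in the averaged effect, where Chil3 alone had passed. Other counts of called probes in the averaged effect were 2 with arrays scaled, 9 with averaged probes, 0 with averaged arrays of an air and 0 to 34 without single arrays. In UCP air there were 2 with averaged probes and 0 to 36 without single arrays. In particle-free air there were 1 with averaged probes, 10 with probes on at least 3 arrays and 0 to 24 without single arrays, and for the difference 0 to 32 without single arrays. The 424 probes changed at least 1.5-fold on all arrays became 134 at 2-fold and 609 to 696 without single arrays, always with Slc26a4 and Tff2 as the members among them. Other directions that turned were those of the difference between the airs for Tff2 with arrays scaled (0.10), of Itln1 in particle-free air with arrays centred (0.007), and, without single arrays, of the difference for Slc26a4 (-0.45 to 0.77), Spdef (-0.18 to 0.38) and Itln1 (-0.091 to 1.67), of Foxa3 in UCP air (-0.16 to 0.43) and of Itln1 in particle-free air (-0.91 to 0.84). Fewer genes tested or fewer arrays are part of these settings, and further causes were not tested. A lone array left in an air was assumed to vary like the other air.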
